A study of Sus scrofa with 14 samples.

Results

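Dividing cells of sow milk were taken as the barcodes that carried RNA of at least 3 of 9 genes of DNA replication and mitosis, TOP2A, TPX2, UBE2C, PCLAF, CDK1, CENPE, CCNB1, HMMR and BIRC5. Each barcode stands for a captured cell, and each UMI, a short random tag, stands for a captured RNA molecule. A barcode was kept when it had 300 genes or more and no more than 25% of its UMIs from mitochondrial genes, which left 17571 cells in the L0 library and 14514 in the L20 library. By this rule 184 L0 cells and 46 L20 cells were dividing, 230 of 32085 kept milk cells. The study followed the mammary gland of multiparous sows in their second breeding cycle through late gestation, lactation and involution, with nuclei from glands, tissue sections and cells from milk. The milk libraries are a sample of colostrum at lactation day 0 (L0) and a sample of mature milk at lactation day 20 (L20), although the tissue label of both reads mammary gland. Whole cells were captured with the GEXSCOPE kit, the labels give no treatment, and the 12 libraries of nuclei and milk cells hold 169223 barcodes together. Each stage has 1 milk library, so no difference between L0 and L20 could be tested, and the intervals below cover counting error only.

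A dividing cell first copies its DNA in S phase and then separates the copies in G2 and M phase. E2F factors and the DREAM complex switch the genes of these phases on and off, and the G2 and M genes are held silent in resting cells through a promoter element called CHR, which often lies near CCAAT boxes, the sites of the activator NF-Y. In the mammary gland, epithelium grows mainly during pregnancy, and secretory cells are held to be mostly differentiated once milk is made. Milk also carries macrophages, granulocytes and lymphocytes, and tissue macrophages and activated T cells can divide as well, so division genes alone do not name a lineage.

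The promoters of CDK1, the kinase that starts mitosis, UBE2C, which marks cyclins for destruction, and TOP2A, which untangles DNA copies, are shown because these genes defined the cells and hold both elements. Each is 250 bases before to 50 bases after the RefSeq gene start on Sscrofa11.1, 5′ to 3′ on the plus strand of chr14:64233695-64233994, chr17:48018153-48018452 and chr12:22001050-22001349, with CHR and CCAAT letters of either strand in capitals.
CDK1: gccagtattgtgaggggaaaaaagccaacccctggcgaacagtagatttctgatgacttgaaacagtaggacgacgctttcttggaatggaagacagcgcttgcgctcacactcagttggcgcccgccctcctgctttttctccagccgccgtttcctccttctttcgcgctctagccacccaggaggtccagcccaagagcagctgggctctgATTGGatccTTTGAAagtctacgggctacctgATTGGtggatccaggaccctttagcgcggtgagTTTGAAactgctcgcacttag
UBE2C: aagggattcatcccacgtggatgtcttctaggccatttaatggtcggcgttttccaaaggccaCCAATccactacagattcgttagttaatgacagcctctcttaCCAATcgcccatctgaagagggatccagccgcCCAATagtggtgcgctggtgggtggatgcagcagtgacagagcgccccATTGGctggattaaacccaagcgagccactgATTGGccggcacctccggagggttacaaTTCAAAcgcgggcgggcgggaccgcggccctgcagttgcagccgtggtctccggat
TOP2A: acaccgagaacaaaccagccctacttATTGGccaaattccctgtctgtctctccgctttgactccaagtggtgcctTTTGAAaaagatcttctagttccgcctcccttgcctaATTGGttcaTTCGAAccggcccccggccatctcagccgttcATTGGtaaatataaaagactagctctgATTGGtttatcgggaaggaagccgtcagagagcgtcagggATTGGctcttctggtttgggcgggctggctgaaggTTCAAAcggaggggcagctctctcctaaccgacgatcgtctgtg
CHR was searched as TTTGAA or TTCGAA, the CCAAT box as CCAAT, and E2F sites as TTTGGCGC, TTTCCCGC, TTTGCCGC or TTTCGCGC, on both strands, and none of these words holds another. The CDK1 promoter held 2 CHR words, 2 CCAAT words and 1 E2F word, which is left in lower case. The UBE2C promoter held 1 CHR word and 5 CCAAT words, and the TOP2A promoter held 3 and 5.

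Among the 9 defining genes, 5 promoters held a CHR word and 8 held a CCAAT word, against 15.6% and 35.4% of 19556 promoters of protein-coding genes. The words were also counted for the wider phase lists used below. Of 59 G2 and M promoters outside the rule, 30 held CHR, 42 held CCAAT and 10 held E2F. Of 49 S phase promoters, 8 held CHR, 30 held CCAAT and 17 held E2F, a word found in 3.35% of all promoters. CHR and CCAAT stood together in 23 of the 59 G2 and M promoters, in 7 of the 49 S phase promoters and in 6.14% of all promoters. A match describes letters in this window and is not a shown binding site.

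The libraries differed in depth. The L0 file held 84971814 UMIs in 22257 barcodes and the L20 file 46923887 UMIs in 18733 barcodes, with medians of 1330 and 1285 UMIs among kept cells. They shared 284 barcode sequences, 0 of them among the dividing cells. Dividing cells were far deeper than the rest, with a median of 22928 UMIs (1500 to 60171) at L0 and 33073 UMIs (1213 to 63399) at L20, against 1320 and 1281 UMIs in the other cells. Finding 3 genes is easier in a deep cell, so most comparisons below set dividing cells beside the other kept cells of at least 5000 UMIs, called deep cells, of which there were 2822 at L0 and 1438 at L20 with medians of 17801 and 10198.5 UMIs. Doublets were not removed, because the caller used marked 0 cells in either library, and how many dividing barcodes hold more than 1 cell was not tested.

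Dividing cells made up 1.05% of kept L0 cells (exact binomial 95% interval 0.902 to 1.21) and 0.317% of kept L20 cells (0.232 to 0.423). Among cells of at least 5000 UMIs the shares were 5.49% (4.70 to 6.37; 164 of 2986) and 2.64% (1.88 to 3.59; 39 of 1477). The share was higher in colostrum on either denominator. With every cell thinned to 2000 UMIs and shallower cells left out, 81 of 5255 L0 cells (1.54%, 1.23 to 1.91) and 16 of 4074 L20 cells (0.393%, 0.225 to 0.637) met the rule. These are 1 library each, and the spread between sows is not known for milk.

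The number of defining genes per cell went on falling past the cut before it rose. At L0, 16175 cells had none of the 9, 1083 had 1, 129 had 2 and 42 had 3. Cells with 4, 5, 6 and 7 genes numbered 21, 22, 15 and 11, and 30 had 8 and 43 had all 9. At L20, 13883 cells had none, 60 had 2, 9 had 3, between 4 and 7 had each number from 4 to 8, and 10 had all 9. Cells just outside the rule, with 2 genes, had median depths of 21885 UMIs at L0 and 21549.5 at L20, and cells just inside, with 3 genes, had 16320 and 4744. S phase genes outside the rule summed to 579 CPM (UMIs scaled to a group total of 1e+06) in the L0 cells with 2 defining genes and to 1303 CPM in those with 3, and G2 and M genes to 1469 and 2379 CPM. The L20 cells went from 572 to 1584 CPM for S phase genes and from 2575 to 4217 CPM for G2 and M genes.

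**Figure D1:**
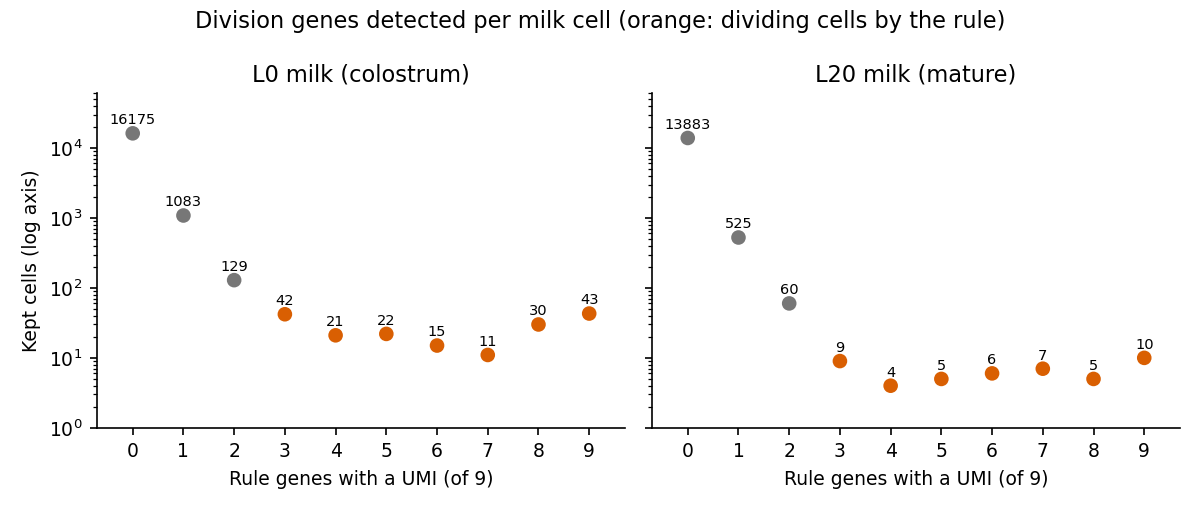
Number of kept cells (log axis) by how many of the 9 defining genes had a UMI, with L0 milk on the left and L20 milk on the right, the count printed above each point, and dividing cells in orange. Counts go on falling past the cut at 3 genes, to 11 cells at 7 genes (L0) and 4 cells at 4 genes (L20), and are 43 and 10 cells at all 9.

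The 9 genes that chose the cells are given as a description, in CPM, which count molecules and are not divided by gene length. PCLAF, a clamp-associated factor of DNA replication, had the highest level in both libraries, 314 CPM with UMIs in 82.6% of L0 dividing cells and 495 CPM with UMIs in 89.1% of L20 dividing cells. UBE2C followed with 267 and 270 CPM, in 69.6% and 65.2% of cells. TOP2A stood at 199 CPM (186 to 213) and 153 CPM (133 to 176), in 66.3% and 58.7% of cells. CDK1 was at 149 and 179 CPM, in 70.1% and 73.9%. CCNB1, the cyclin partner of CDK1, was the least detected in both libraries, with UMIs in 42.4% and 43.5% of dividing cells at 96.8 and 87.1 CPM. The spindle genes TPX2 and HMMR were seen in 70.7% and 62.0% of L0 and in 71.7% and 52.2% of L20 dividing cells. CENPE, a kinetochore motor, was seen in 69.6% and 89.1%, and BIRC5, a chromosome passenger, in 72.3% and 71.7%. In other deep cells none of the 9 was seen in more than 5.53% (BIRC5, L0) or 8.07% (BIRC5, L20) of cells.

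The dividing cells of L0 were mostly epithelial and those of L20 mostly carried CD68, by the 4 lineage genes the rule names. EPCAM, an epithelial adhesion protein, and CLDN4, a tight junction protein, mark epithelium, CD68 is a lysosomal protein of macrophages, and CD3D is part of the T cell receptor. At L0, 114 of 184 dividing cells (62.0%, 54.5 to 69.0) had UMIs of EPCAM or CLDN4 and none of the other lineages, called epithelial-only below. A further 39 (21.2%) had EPCAM or CLDN4 together with CD68, 7 (3.80%) had CD68 alone, 2 had CD3D alone, 3 had another mix and 19 (10.3%) had none of the 4. At L20, 25 of 46 dividing cells (54.3%, 39.0 to 69.1) had CD68 alone and 8 (17.4%, 7.82 to 31.4) had CD3D alone. Epithelial UMIs alone were seen in 2 L20 dividing cells (4.35%, 0.531 to 14.8), epithelial UMIs with CD68 in 6 (13.0%) and none of the 4 in 5 (10.9%).

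Gene by gene, EPCAM UMIs were in 81.0% of L0 and 17.4% of L20 dividing cells, and CLDN4 UMIs in 76.1% and 6.52%. CD68 UMIs were in 25.5% and 67.4%, and CD3D UMIs in 2.72% and 17.4%. These shares followed the other deep cells of the same milk closely for 3 of the 4 genes at L0, where EPCAM was seen in 84.7%, CLDN4 in 76.0% and CD68 in 26.0% of cells. At L20 the other deep cells gave 24.1% for EPCAM, 18.1% for CLDN4 and 72.9% for CD68. CD3D UMIs were in 1.88% of other deep L20 cells and 4.79% of all other L20 cells, and in 0.780% and 1.36% at L0. Of the 39 L20 dividing cells that also reached 5000 UMIs, 5 had CD3D (12.8%, exact 95% interval 4.30 to 27.4), so 3 of the 8 lay below that depth.

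**Figure D2:**
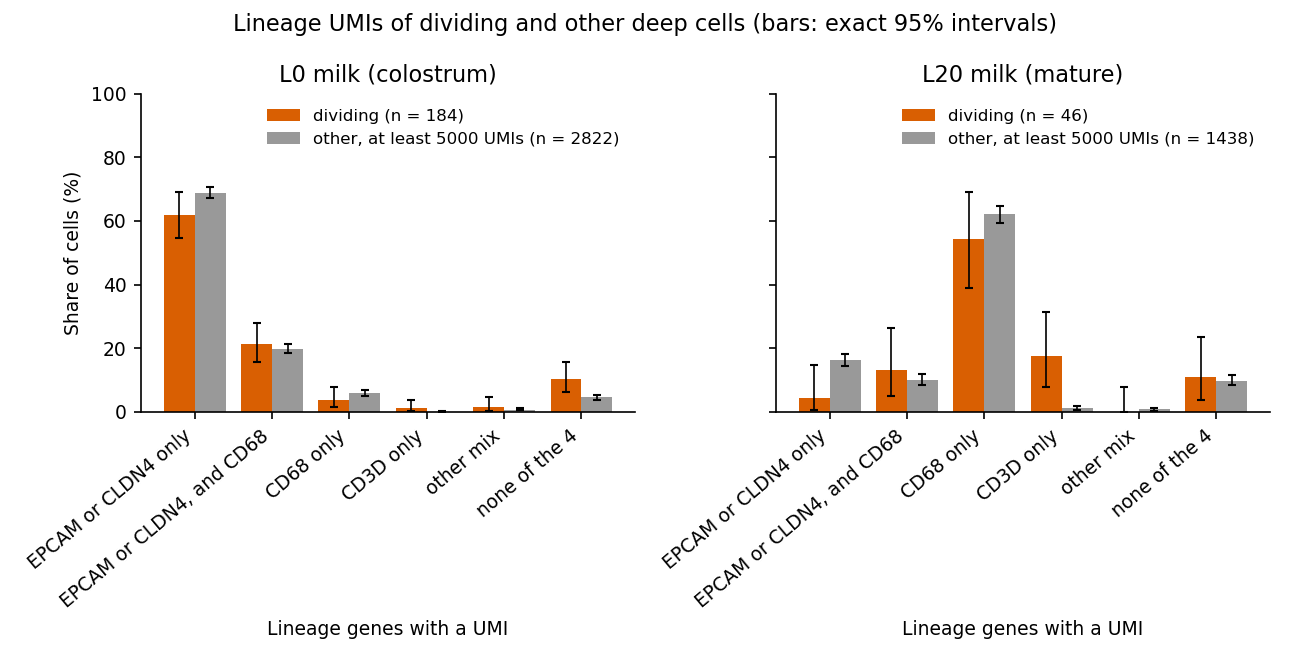
Share of cells (%) by which lineage genes had a UMI, in dividing cells (orange) and in other cells of at least 5000 UMIs (grey) of L0 and L20 milk, with exact binomial 95% intervals. Epithelial-only cells lead at L0 (62.0% and 68.9%) and CD68-only cells at L20 (54.3% and 62.0%), while CD3D-only cells are 17.4% of dividing cells, of any depth, and 1.11% of other deep cells at L20.

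Within lineages, the dividing share of deep L0 cells was close to that of all deep L0 cells in epithelial-only cells. Of 2052 deep epithelial-only L0 cells 108 were dividing (5.26%, 4.34 to 6.32), and of 174 deep CD68-only cells 6 were (3.45%, 1.28 to 7.35). At L20 the rule found 2 of 235 deep epithelial-only cells (0.851%, 0.103 to 3.04) and 23 of 915 deep CD68-only cells (2.51%, 1.60 to 3.75). These intervals cover counting error only, with 1 library a stage, and the other deep epithelial-only cells had a median of 17853.5 UMIs at L0 and 10663 at L20, so stage, library and depth cannot be told apart. CD3D-only cells were shallow, and only 4 at L0 and 21 at L20 reached 5000 UMIs, of which 2 and 5 (23.8%, 8.22 to 47.2) were dividing. Without the depth limit 8 of 652 CD3D-only L20 cells (1.23%) were dividing, beside 25 of 3618 CD68-only cells (0.691%) and 2 of 599 epithelial-only cells (0.334%).

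The lineage was also read from longer luminal, macrophage, and T and NK lists of markers. A cell took the list with at least 3 UMIs and at least 2 times the UMIs of the next. No basal or granulocyte list competed, so basal-like or granulocyte-like cells could fall under any of these lists. By these lists 157 of 184 L0 dividing cells (85.3%, 79.4 to 90.1) matched the luminal list, 17 the macrophage list, 2 the T and NK list, and 8 no list. These counts hold 5 dividing cells rich in the plasma cell genes JCHAIN and MZB1, 1 under the luminal list, 2 under the macrophage list and 2 under none, and without them 156 of 179 were luminal and 15 matched the macrophage list. Of the other deep L0 cells 79.5% were luminal and 11.8% matched the macrophage list. At L20 33 of 46 dividing cells, of any depth, matched the macrophage list (71.7%), 9 the T and NK list (19.6%) and 4 the luminal list (8.70%, 2.42 to 20.8). In the same order the shares were 74.1%, 1.18% and 22.3% of the other deep L20 cells. Of all other L20 cells they were 67.1%, 7.08% and 7.20%. Of the 114 L0 epithelial-only cells 108 were luminal by list, and all 7 CD68-only cells matched the macrophage list. At L20 all 25 CD68-only cells matched the macrophage list and all 8 CD3D-only cells the T and NK list. The lists themselves hold EPCAM and CLDN4, CD68 or CD3D, so this agreement is partly set by the choice of cells.

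The cells with both epithelial and CD68 UMIs differed between the milks. At L0, 31 of the 39 were luminal by list and 7 matched the macrophage list, and 21 of the 39 rested on 1 CD68 UMI and 30 on at most 3. At L20, 5 of 6 matched the macrophage list, with a median of 13 CD68 UMIs. CD68 UMIs were as frequent in other deep L0 cells of the luminal list (19.5%, at 12.2 CPM) as in dividing ones (20.4%). EPCAM or CLDN4 UMIs were in 6.58% of other L0 cells of the macrophage list at a median of 1249 UMIs, in 30.1% of the deep ones at 7457 UMIs and in 58.8% of the dividing ones at 26235 UMIs (53.3% without the cells rich in plasma cell genes). The share with an epithelial UMI was higher in each deeper group, and at L20 it was 1.14%, 4.97% and 15.2%. CD68 UMIs were in 13.5%, 70.8% and 82.4% of the same L0 groups, so depth, division and the make-up of the groups cannot be told apart. CSN2, the beta-casein gene, was found in 99.4% of other L0 cells of the macrophage list (6583 CPM) and in 55.5% of those of L20. The part of free RNA in these lineage UMIs was not tested.

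**Figure D3:**
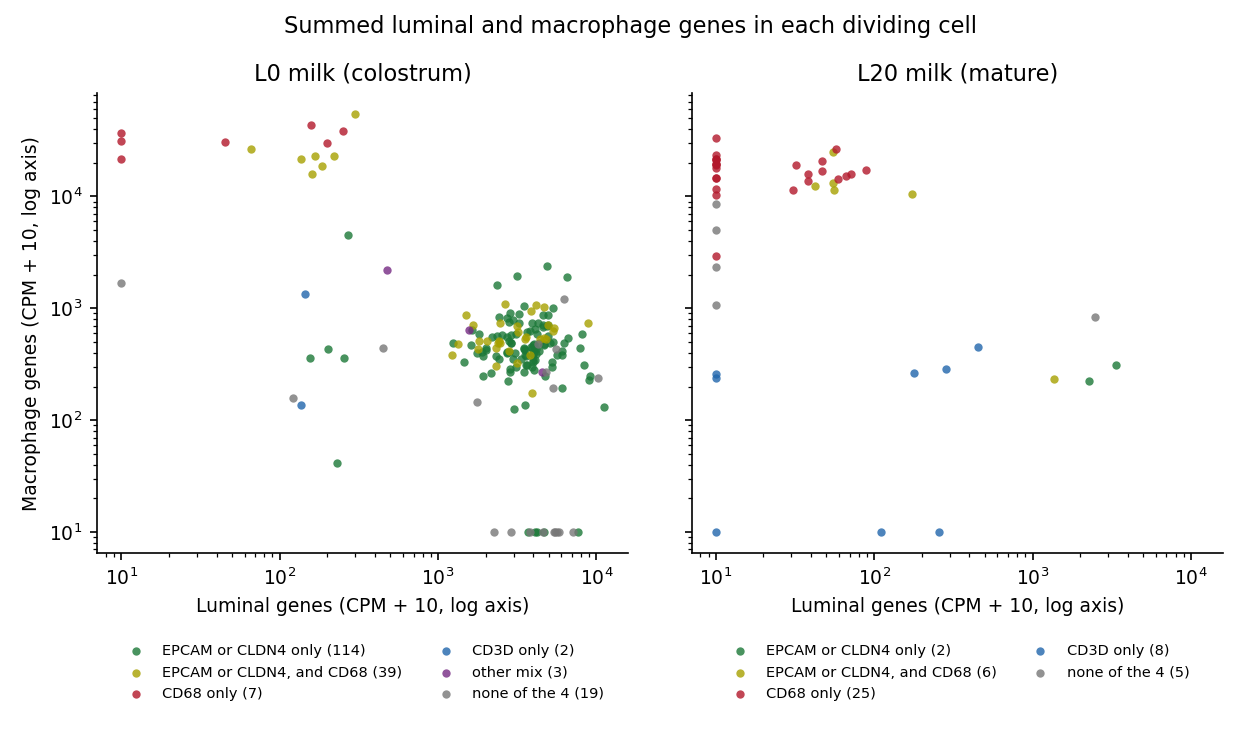
Summed luminal genes against summed macrophage genes in each dividing cell (CPM + 10, log axes), L0 left and L20 right, coloured by which lineage genes had a UMI. L0 epithelial-only cells centre on 3603 CPM of luminal genes with a median of 421 CPM of macrophage genes, and L20 CD68-only cells centre on 17350 CPM of macrophage genes with a median of 0 CPM of luminal genes. The sums include the lineage genes that set the colours.

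Within the L0 epithelial-only dividing cells the summed luminal genes ranged from 146 to 11195 CPM with a median of 3603, and the macrophage genes from 0 to 4537 CPM with a median of 421. The 25 CD68-only dividing cells of L20 had 2906 to 33321 CPM of macrophage genes (median 17350) and 0 to 78.9 CPM of luminal genes (median 0). The 7 CD68-only cells of L0 had 21731 to 43441 CPM of macrophage genes, a range that does not overlap that of the epithelial-only cells. CD68, which split these groups, is part of that sum. The 8 CD3D-only cells of L20 had 1999.5 to 18521 CPM of T and NK genes (median 3890).

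Summed over cells, the dividing epithelial cells of colostrum carried the S, G2 and M programme. Beside it stood an epithelial and milk-making profile close to that of other deep epithelial cells. Of 97 measured S, G2 and M genes outside the rule, of which 95 had at least 20 UMIs, 88 were at least 2-fold higher in the 114 dividing cells than in 1944 other deep epithelial-only cells and 0 were 2-fold lower, with a median of 14.2-fold. Over all 12644 genes 6.96% were 2-fold higher and 3.45% 2-fold lower. The cells were chosen on genes of this same programme, so the count describes them and supports nothing more. S phase genes gave 41 of 45 (median 11.96-fold) and G2 and M genes 47 of 52 (median 20.5-fold). These are sums, and not every cell was raised. Of the 114 cells 27 had just 3 defining genes. A cell among them held 345 CPM of S phase and 1164 CPM of G2 and M genes, and another 280 and 1345 CPM. The other deep cells summed to 328 and 1034 CPM.

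Among S phase genes the highest levels in dividing cells belonged to PCNA, the sliding clamp of DNA polymerase, at 231 CPM (214 to 250) against 27.2 CPM in other deep cells. PCNA UMIs were in 94 of the 114 dividing and 644 of the 1944 other cells, so the groups overlap cell by cell, at median depths of 23138 and 17853.5 UMIs that bear on all such shares. RFC2, a clamp loader subunit, was at 170 against 50.9 CPM, and USP1, a deubiquitinase of DNA repair, at 129 against 39.6 CPM. TK1, the thymidine kinase of S phase, was at 122 CPM (109 to 136) against 3.66 CPM, in 68 of 114 and 115 of 1944 cells. Subunits of the replicative helicase were lower in level, with MCM2 at 40.3 against 1.89 CPM and MCM5 at 36.2 against 1.40 CPM.

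Among G2 and M genes the highest were structural. TUBA1B, an alpha tubulin, was at 1323 against 390 CPM and was seen in all 114 dividing cells, from 68.9 to 7113 CPM with a median of 1153. H2AFZ, the histone variant H2A.Z, was at 755 against 128 CPM, HMGB2, a chromatin protein, at 400 against 44.6 CPM, and CKS2, a subunit of CDK complexes, at 313 against 99.6 CPM. STMN1, a tubulin-binding protein, was at 281 against 20.2 CPM. Some mitotic regulators, named although they are not among the highest levels, were low in level and nearly absent in the other deep cells. PBK, a mitotic kinase picked after its values were seen, was at 67.2 against 0.26 CPM, CDC20, an activator of the anaphase-promoting complex, at 74.3 against 1.01 CPM, and DLGAP5, a spindle protein, at 51.5 against 0.44 CPM.

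Genes of the G1 phase and cell cycle inhibitors were partly higher and partly level. Of 29 measured, 11 were at least 2-fold higher in L0 dividing epithelial cells and 0 lower, beside 6.96% and 3.45% of all 12644 genes. The 4 with the highest levels were near equal, BTG1, an antiproliferative gene, at 208 against 225 CPM, the CDK inhibitor CDKN1C at 176 against 166 CPM, cyclin CCND3 at 70.9 against 54.9 CPM and the stress gene GADD45A at 68.3 against 66.4 CPM. The inhibitor CDKN1A was at 38.1 against 47.4 CPM and cyclin CCND1 at 27.99 against 27.4 CPM. Also outside the 4 highest levels, CDK2, the S phase kinase, was at 33.6 against 6.95 CPM. E2F1, the activator of S phase genes, was at 14.6 against 0.44 CPM, and MYBL2, a DREAM partner that activates G2 and M genes, at 25.01 against 0.54 CPM.

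**Figure D4:**
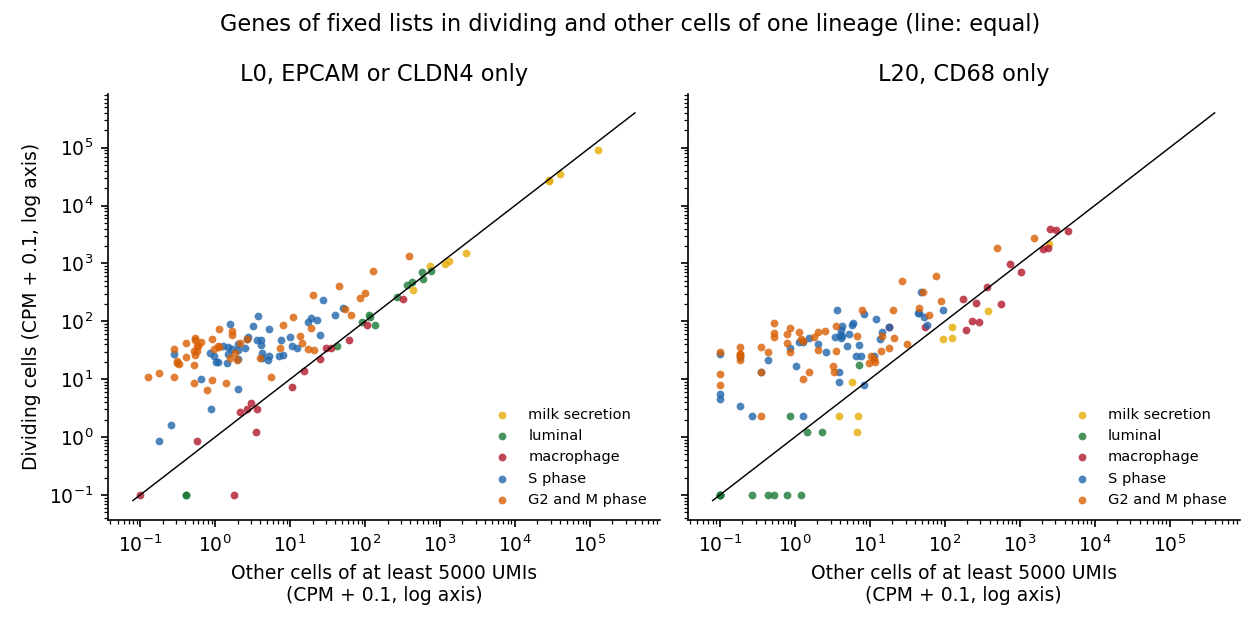
Level of each list gene in dividing cells against other cells of at least 5000 UMIs of the same lineage (CPM + 0.1, log axes; line: equal), for epithelial-only cells of L0 and CD68-only cells of L20. S, G2 and M genes mostly lie above the line (medians 14.2-fold and 12.2-fold) and luminal and milk genes of L0 lie near it (summed ratios 1.03 and 0.80).

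Milk genes were at high levels in these cells. CSN2 made up 90253 CPM of the dividing and 127351 CPM of the other deep epithelial-only cells of L0, and per cell it ranged from 3764 to 159060 CPM (median 87075) and from 2507 to 316841 CPM (median 126226). CSN3, the kappa-casein gene, was at 35284 against 40273 CPM, LALBA, which directs lactose synthesis, at 27395 against 28274 CPM, and CSN1S1, the alpha-S1-casein gene, at 26551 against 28858 CPM. None of the 9 measured milk secretion genes was 2-fold higher or lower, and their sum was 184353 against 230650 CPM (ratio 0.80). Per cell they took 0.658% to 31.2% of UMIs in dividing cells (median 18.2, quartiles 13.1 and 22.1) and 0.459% to 42.0% in other deep cells (median 23.3, quartiles 18.8 and 27.0). Cells with under 5% were 13 of 114 dividing (11.4%) and 5.04% of the others, and without cells rich in the plasma cell genes JCHAIN and MZB1 they were 9 of 110 (8.18%) and 4.65%, with a lowest dividing value of 1.01%. The ranges overlap almost fully, and the dividing cells sit lower in median.

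**Figure D5:**
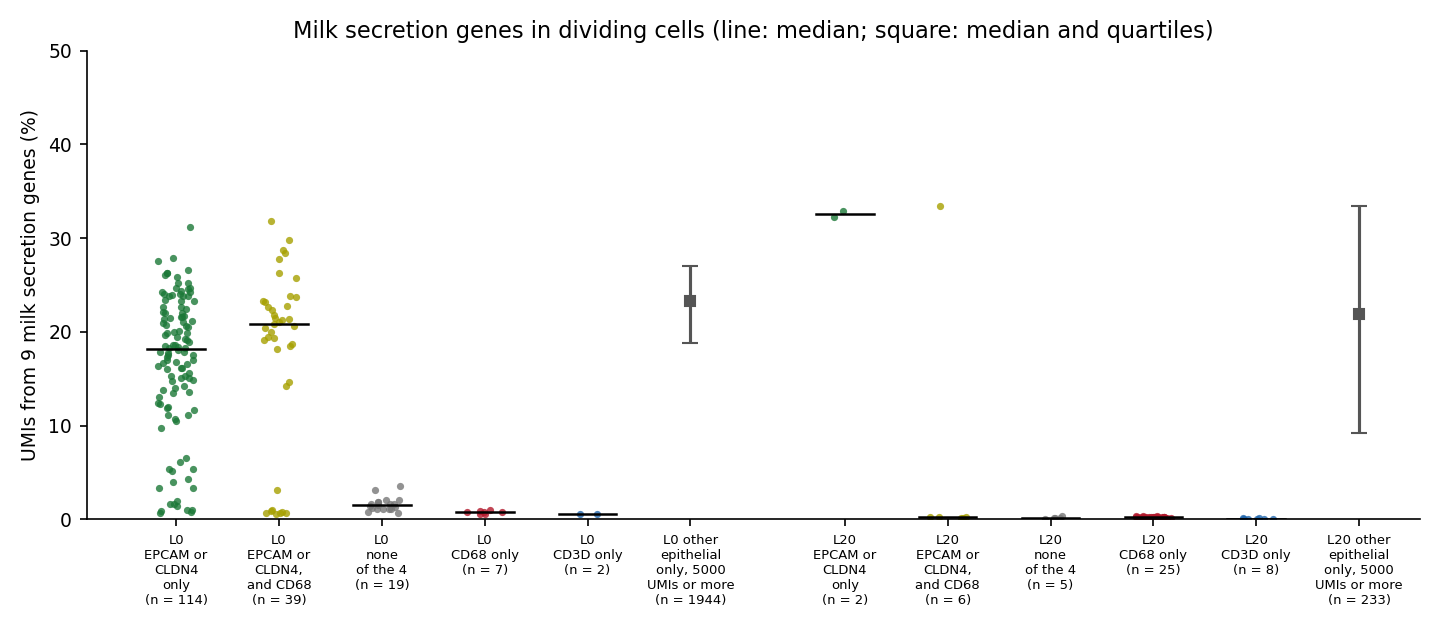
Percent of each dividing cell's UMIs from 9 milk secretion genes by lineage in L0 and L20 milk (points, line at the median), beside the median and quartiles of other epithelial-only cells of at least 5000 UMIs (squares). L0 epithelial-only dividing cells have a median of 18.2% beside 23.3% in other deep cells, and CD68-only cells have medians of 0.763% at L0 and 0.229% at L20.

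Luminal identity genes were level as well. Of 13 measured, 0 were 2-fold higher or lower in L0 dividing epithelial cells, and their sum was 3611 against 3507 CPM. The tight junction gene CLDN3 was at 727 against 766 CPM, ELF5, the transcription factor of secretory luminal cells, at 706 against 580 CPM, and EHF, an epithelial transcription factor, at 484 against 425 CPM. EPCAM and CLDN4 are among the 13 and in the sum, with 964 CPM together in the dividing and 967 CPM in the other cells. They chose both groups, so their levels say nothing here. The keratin KRT8 was at 263 against 269 CPM, in 95 of 114 and 1608 of 1944 cells. None of 7 progenitor genes reached 2-fold, with KIT, a receptor of luminal progenitors, at 50.4 against 63.5 CPM and ALDH1A3, a retinaldehyde dehydrogenase, at 47.8 against 38.5 CPM.

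Of 11 basal genes 2 were higher and 1 lower, beside 6.96% and 3.45% of all 12644 genes. The higher ones, named after their values were seen, were the keratin KRT15 at 16.05 against 0.65 CPM (43 and 25 UMIs) and the basal transcription factor TP63 at 8.58 against 1.48 CPM (23 and 57 UMIs). These UMIs are few, and the number of dividing cells that held them is not given. The basal keratin KRT14 was at 74.3 against 86.9 CPM. None of 14 hormone and growth factor receptors and STATs was past 2-fold, by the call of at least 20 UMIs in the higher group, including the prolactin receptor PRLR at 28.4 against 23.9 CPM, STAT5A at 102 against 96.4 CPM and STAT5B at 139 against 167 CPM, which carry its signal. ERBB3, a growth factor receptor, had the highest level of this list, 1457 against 1243 CPM, but also stood at 2009 CPM in CD68-only and 4042 CPM in CD3D-only dividing cells of L20, so its UMIs did not follow the epithelial lineage here. Some genes were absent or rare in dividing cells, picked after their values were seen. The chemokine gene CXCL10 had 0 UMIs in the 114 dividing cells and 451 UMIs in 42 of the 1944 others, and MMP7, an epithelial metalloproteinase, had 7 UMIs against 723 in 48 of the others.

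A few L0 dividing cells carried plasma cell genes. In 5 of 184 (2.72%, 0.888 to 6.23) at least 1% of UMIs came from JCHAIN, which joins secreted antibodies, and MZB1, an antibody chaperone of plasma cells, a limit set after the data were seen. These 5 had a median of 28430 UMIs, JCHAIN at 56272 CPM, the B cell coactivator POU2AF1 at 1255 CPM, and UMIs of XBP1, the secretory regulator of plasma cells, in all 5, while 0 had KRT8 UMIs. Of these cells 4 counted as epithelial-only through a few UMIs of EPCAM (13.6 CPM) or CLDN4 (27.1 CPM). Milk secretion genes took 0.861% of their UMIs. The same limit was met by 20 of 2822 other deep L0 cells (0.709%), by 12 of 1438 other deep L20 cells (0.834%) and by 0 of 46 L20 dividing cells, which allows a share of up to 7.71%. Leaving these cells out took the B and plasma list from 3.07-fold to 1.13-fold higher in dividing than in other deep epithelial-only cells. JCHAIN and MZB1 are in that list, so this fall follows from the choice of cells. Without these cells 88 S, G2 and M genes were 2-fold higher, with 6.77% of all genes higher and 3.35% lower.

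The 19 L0 dividing cells with none of the 4 lineage genes were shallow, with a median of 4335 UMIs, and 16 of them were luminal by the longer list. These 16 had KRT8 UMIs in every cell, at 1670 CPM, but KRT8 is in the list that chose them. The basal keratin KRT14 was found in 13, at 1089 CPM, and CSN2 was at 8425 CPM. Their basal genes summed to 1342 CPM and their luminal genes to 4891 CPM. No basal list competed in the choice, so the luminal name does not set these cells apart from basal cells. No like set of other cells was chosen by the same list, so no comparison is given. All 19 took 0.675% to 3.52% of their UMIs from milk secretion genes. Their median mitochondrial share was 0.0949% (0.0214 to 4.63), beside 2.36% (0.0404 to 10.6) in the epithelial-only dividing cells. The ranges overlap, and the median depths were 4335 and 23138 UMIs, so this share cannot be told apart from depth. The calcium-binding gene SCGN, looked up after its values were seen, was found in all 16 cells of the luminal list, at 5651.5 CPM.

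The largest group of L20 dividing cells, the 25 with CD68 alone, carried macrophage genes. Of the same 97 S, G2 and M genes, 82 had at least 20 UMIs and 69 were at least 2-fold higher than in 892 other deep CD68-only cells, with 0 lower and a median of 12.2-fold, and again the choice of cells used this programme. Over 9969 genes 4.59% were 2-fold higher and 13.3% 2-fold lower. PCNA was at 321 against 48.2 CPM, TK1 at 160 against 3.58 CPM and STMN1 at 493 against 27.0 CPM. STMN1 UMIs were in 24 of 25 dividing and 165 of 892 other cells, but the dividing cells had a median of 36542 UMIs and the others 10300, so in these groups shares of cells with a UMI cannot be told apart from depth. TUBA1B was at 2709 against 1556 CPM and H2AFZ at 1842 against 504 CPM, both seen in all 25 dividing cells.

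The macrophage list summed to 18113 CPM in these dividing cells and 18439 CPM in the others, and of its 16 measured genes 1 was 2-fold higher and 4 lower. Over all genes of this comparison 4.59% were higher and 13.3% lower. GPNMB, a glycoprotein of lipid-laden macrophages, was at 3876 against 2569 CPM. APOE, a lipid carrier, was at 3857 against 3017 CPM, and the protease CTSS was at 3572 against 4453 CPM. MARCO, a scavenger receptor named as the 1 higher gene, was at 81.0 against 17.9 CPM. Of 6 antigen presenting genes 3 were lower, among them CD74, the MHC class II chaperone, at 1747 against 3787 CPM. SLA-DQB1, an MHC class II chain, was at 705 against 1255 CPM, short of 2-fold.

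The next genes were picked after their values were seen, so their differences are a description. SPP1, the secreted protein osteopontin, was at 34292 CPM in dividing and 12049 CPM in other deep cells, and ran from 211 to 105395 CPM per dividing cell (median 24287) and from 0 to 122486 in the others (median 200.4). FABP4, a fatty acid carrier, was at 18775 against 7060 CPM, with medians of 18418 and 97.1 CPM per cell. The ranges of both genes overlap fully, and the medians lie far apart. ARG1, an arginase of myeloid cells, was at 120 against 2129 CPM, the protease inhibitor TIMP1 at 624 against 11137 CPM and the cytokine IL10 at 3.33 against 71.5 CPM. A dividing cell held 93803 CPM of TIMP1 while the median was 95.3 CPM.

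Of 10 growth factor ligands measured, 5 were at least 2-fold lower in these dividing cells and 1 higher, beside 13.3% of all genes lower and 4.59% higher. AREG, an EGF receptor ligand, was at 0 against 53.8 CPM, HBEGF, another, at 5.55 against 72.7 CPM and CSF1, the macrophage growth factor, at 25.5 against 104 CPM. BTC, the higher one and also an EGF receptor ligand, was at 58.8 against 25.5 CPM. Of 29 G1 genes and inhibitors 5 were higher and 2 lower, with MYBL2 at 56.6 against 0.17 CPM and CDKN1A at 16.7 against 102 CPM. The granulocyte list summed to 12341 CPM in the dividing cells and 10127 CPM in the others. Per dividing cell it ran from 0 to 39569 CPM, and the highest cell held 19691 CPM of macrophage genes, so in some cells it exceeded the macrophage list. Of 7 granulocyte genes 0 were higher and 2 lower. S100A12 and S100A8, both calcium-binding proteins of myeloid cells, were at 9524 against 6073 and 2011 against 1719 CPM, and CXCL8, a neutrophil chemokine, was at 485 against 1899 CPM.

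The 7 CD68-only dividing cells of L0 differed from those of L20 in the levels of some macrophage genes. In 6665 genes 1.85% were 2-fold higher and 16.7% lower than in 168 other deep CD68-only L0 cells. Among S, G2 and M genes only 29 had at least 20 UMIs, of which 10 were higher and 2 lower, so 7 cells gave few countable genes. STMN1 was at 502 against 42.5 CPM. Of 16 macrophage genes 5 were higher and 1 lower. C1QB, a complement chain of tissue macrophages, was at 3495 CPM in the L0 dividing cells, 1540 CPM in the other deep L0 cells and 101 CPM in the L20 CD68-only dividing cells. C1QA was at 2187, 984.5 and 241 CPM, and C1QC at 3299, 1522 and 205 CPM. SPP1 went the other way, at 1145 CPM in L0 and 34292 CPM in L20 dividing CD68-only cells, and FABP4 at 49.1 and 18775 CPM. The other deep CD68-only cells differed between the milks in the same order, with C1QB at 1540 CPM in L0 and 233 CPM in L20 and SPP1 at 2201 and 12049 CPM.

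The 8 CD3D-only dividing cells of L20 had a median of 7118.5 UMIs. Few other CD3D-only cells were deep, so all 644 of them, with a median of 1726 UMIs, were set beside them, and the difference in depth cannot be told apart from the groups. Over 5874 genes 1.94% were 2-fold higher and 10.7% lower. Of 97 S, G2 and M genes 36 had at least 20 UMIs, and 14 were higher and 0 lower. STMN1 was at 1645 CPM (1329 to 2013) against 79.0 CPM and TK1 at 525 CPM (354 to 749) against 4.70 CPM, each with UMIs in all 8 dividing cells, and HMGB2 was at 3097 against 405 CPM. Of 13 T and NK genes 0 were higher and 2 lower. CD3E, a T cell receptor chain, was at 560 against 542 CPM, and the cytotoxic granule genes NKG7 and GNLY were at 1680 against 898 CPM and 1050 against 1392 CPM. GZMH, a granzyme picked after its values were seen, was at 3710 against 985 CPM, but 5 of the 8 cells had it and they ranged up to 20531 CPM around a median of 395.

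Between the milks, the dividing epithelium could be compared only against 2 L20 cells. These held 37339 and 50062 UMIs, 8 and 9 of the defining genes, and 32.3% and 32.9% of UMIs from milk secretion genes. Of 7774 genes 20.2% were at least 2-fold higher in L0 and 0.553% at least 2-fold higher in L20, against 21.4% and 3.28% of 13099 genes between the other epithelial-only cells. A call asked for at least 20 UMIs in the higher group, which 2 cells reach only for abundant genes. LALBA was at 27395 CPM in L0 and 67242 CPM in L20 dividing cells, and at 28274 and 35131 CPM in other deep epithelial-only cells. The named genes that were higher in L0 were led by JCHAIN, with 6346 UMIs against 0 (at least 69.0-fold), which the plasma-like cells carried, and by TCN1, a vitamin B12 carrier, at 543 against 11.4 CPM. Those higher in L20 were led by DEPP1, a target gene of FOXO factors, at 1144 against 70.9 CPM, with ATF3, a stress factor, at 1579 against 327 CPM. They also included INSIG1, a regulator of sterol synthesis, at 1453 against 193 CPM, and IDI1, a sterol synthesis enzyme, at 2735 against 690 CPM. The remaining named genes that were higher in L0 lay between 11.7-fold and 20.5-fold. With 2 cells, which belong to 1 library, these values describe cells and not a stage.

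Genes shared by the dividing epithelium of both milks were chosen by the smaller of the folds over all other epithelial-only cells of the same milk. In that comparison 6.43% of genes were 2-fold higher and 5.73% lower at L0, and 0.747% and 10.4% at L20. TK1 led with 31.2-fold at L0 and 66.0-fold at L20, then STMN1 with 13.96-fold and 18.1-fold and PCNA with 8.67-fold and 14.4-fold. The histone genes H1-3 and H2AFZ followed with 6.11-fold and 9.32-fold and with 5.92-fold and 9.95-fold, and HMGB2 with 5.78-fold and 6.70-fold. The others were DUT, which keeps uracil out of DNA, EZH2, a histone methyltransferase, TUBB, a beta tubulin, CKS2, SIVA1 and the spindle protein NUSAP1, between 2.94-fold and 4.24-fold at L0. At L20 the fold of TK1 rested on 20 UMIs, the minimum for a call. The 2 L20 dividing cells had a median of 43700.5 UMIs against 3448 in the others. Both dividing groups were chosen on genes of the same programme, so these folds are a description. Of 97 S, G2 and M genes outside the rule 95 reached 20 UMIs at L0, of which 89 were 2-fold higher, and 34 did at L20, where the dividing side is 2 cells, of which 8 were. All 8 were also higher at L0. Without the minimum of 20 UMIs 76 genes were higher in both milks, but a few UMIs in the 2 L20 cells can then make a call. The share over all genes at that setting is not given, so the count has nothing to stand beside.

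The balance of S to G2 and M genes was read as a ratio with its counting interval, which does not cover the spread between cells or animals. The defining genes are mostly genes of G2 and M phase, so the choice of cells bears on this ratio. Leaving them out of both sums does not undo that, and the ratio describes only the cells chosen. Summed S phase UMIs over summed G2 and M UMIs gave 0.434 (0.421 to 0.448) in L0 and 0.486 (0.414 to 0.570) in the 2 L20 epithelial-only dividing cells. In CD68-only dividing cells the ratio was 0.2504 (0.221 to 0.283) in 7 cells at L0 and 0.323 (0.309 to 0.339) in 25 at L20. Other deep cells also held fewer S phase than G2 and M UMIs, more unevenly in CD68-only cells. Their sums were 328 and 1034 CPM (L0 epithelial-only), 555 and 2937 CPM (L0 CD68-only) and 519 and 2620 CPM (L20 CD68-only). A lower ratio in CD68-only dividing cells is therefore not read as another balance of phases. Single CD68-only cells spread widely. At L0 a cell held 485 CPM of S phase and 11510 CPM of G2 and M genes, and another held 4236 and 6245 CPM. At L20 a cell held 804 and 14353.5 CPM, and another held 5157 and 6250 CPM. The difference between the milks was not tested. By number of defining genes, with lineages pooled, the ratio had no single order. It was 0.394 in the L0 cells with 2 genes and 0.222 in those of L20, which lie outside the rule. At L0 the ratio was 0.616 in 85 cells with 3 to 5 genes, 0.570 in 26 cells with 6 or 7, and 0.295 in 73 cells with 8 or 9. At L20 it was 0.413, 0.451 and 0.311.

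The same rule in nuclei of glands gave 2777 of 126833 nuclei, from another assay and depth, with values set side by side and not compared. Dividing nuclei were 4.38% and 8.86% in the glands of late gestation (G90), 0.804% and 0.106% at L0, and 1.83% and 0.700% at L20. After weaning they were 0.329% and 0.171% at day 2 and 0.672% and 0.199% at day 7.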

How the data were processed

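Cells of 1 colostrum (L0) and 1 mature milk (L20) sample were profiled with the GEXSCOPE kit, and the authors counted UMIs with CeleScope on Sscrofa11.1 and deposited the raw counts per gene and barcode without normalization. The sources used here name no annotation release. Filters on cells were those of the study's methods. Symbols came from the files for 14495 of 25511 (L0) and 13810 of 22325 (L20) gene identifiers. A further 629 (L0) and 612 (L20) identifiers without a symbol were named by identifier from a reference list, UBE2C among them. MKI67, AURKA, CCNA2, RRM2, CKS1B and KRT19 were not matched and are not analysed here.

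UMIs were summed over the cells of a group and scaled to CPM with python 3.11.15, numpy 2.4.6, scipy 1.17.1 and pandas 2.3.3. With 1 library per milk stage no test was run. Shares carry exact binomial and summed counts exact Poisson intervals at 95%, for counting error only. A gene was called past 2-fold with at least 20 UMIs in the higher group, and a group at 0 was set to a floor of 3 UMIs over the group. Scripts were tested on simulated data. Scrublet (scanpy 1.11.5) marked 0 of 17571 and 0 of 14514 cells, which is not a working call, so doublets were kept. Promoter sequences are from RefSeq (Sscrofa11.1).

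Named genes were the 9 defining and 4 lineage genes, list members by their level in dividing cells, the 12 with the largest smaller fold of both libraries, and the leading genes of up to 12 in each direction between L0 and L20. Genes outside this rule are marked as picked after their values were seen only in part. List members below the highest levels, such as CDC20, DLGAP5, MCM2, MCM5, CDK2, E2F1 and MYBL2, were not fixed by the rule either. Members and lists were chosen with earlier results of these data known. Alternatives were other filters on cells, 2 or 4 defining genes, thinning to 1000 or 2000 UMIs, lineage from marker lists, means over cells, other folds, no minimum of UMIs, and, chosen after seeing the data, deep cells, CD68-only cells, 8 defining genes and plasma-like cells left out.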

Additional observations from a re-analysis of the deposited data

Results flagged for a closer look

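The B and plasma cell list lay on opposite sides in the milks. Summed over all dividing cells against all other cells of at least 5000 UMIs, it was higher in dividing cells by 1.22 on the log2 scale at L0 (2664 against 1144 CPM) and lower at L20 with a log2 value of -3.69 (69.7 against 897 CPM). Each value is 1 library, so the difference was not tested. Of the L0 dividing cells 5 held most JCHAIN UMIs, between 1321 and 2038 UMIs each. At L20 0 of 46 dividing cells reached 1% of JCHAIN and MZB1 UMIs, which allows a share of up to 7.71%. Among other deep L20 cells 12 of 1438 did (0.834%), a share within that bound. The opposite sides thus rest on a few cells and do not show that the milks differ.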

How the results depend on the processing

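No paired analysis was possible because each milk stage has 1 library. Under the alternatives 53 values moved by less than their counting interval or, for counts of genes, by less than 1.5 times, and 23 moved by more. The share of dividing cells moved from 1.05% at L0 and 0.317% at L20 to 2.14% and 0.763% with a filter of 500 genes and 10% mitochondrial UMIs, to 1.78% and 0.730% with 2 defining genes, to 0.308% and 0.131% at 1000 UMIs a cell, and to 5.49% and 2.64% among cells of at least 5000 UMIs, an alternative chosen after seeing the data. At L0 it was 0.808% with 4 defining genes and 1.54% at 2000 UMIs. L0 stayed above L20 in each of these. By marker lists, cells of the luminal list were 85.3% of L0 dividing cells. Epithelial-only cells were 12 of 40 at L0 and 0 of 14 at L20 at 1000 UMIs, where lineage UMIs are thinned too. They were 0 of 16 L20 dividing cells at 2000 UMIs, so that setting gave no L20 balance and no L0 to L20 genes. The S to G2 and M ratio of L0, 0.434, was 0.414 with 4 defining genes, 0.317 at 2000 UMIs and 0.2504 in CD68-only cells, where that of L20 was 0.323 (also chosen after seeing the data). At 2000 UMIs 10 cycle genes were higher at L0 in place of 89, since fewer cells and UMIs remain. Without a minimum of UMIs 76 in place of 8 were higher in both milks, where a few UMIs of 2 L20 cells can make a call. Genes past 2-fold between 114 L0 and 2 L20 dividing epithelial-only cells were 1612 of 7774. They were 2722 with 2 defining genes (7 L20 cells), 4438 as means over cells, 2431 at 1.5-fold, 735 at 3-fold and 2723 without a minimum. The genes tested at these other settings are not given, and the counts describe few cells, not a stage. Where no construction shows it, the cause was not tested. Removing doublets gave no value. The L20 results rest on 46 cells and the L0 CD68-only results on 7.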
